A study of Mus musculus with 4 samples.

Results

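NADPH is the reducing cofactor that adipose tissue spends on building fatty acids and sterols and on regenerating reduced glutathione and thioredoxin. In the oxidative branch of the pentose phosphate pathway, glucose 6-phosphate dehydrogenase and phosphogluconate dehydrogenase each make NADPH, with a lactonase between them. Isomerase, transketolase and transaldolase then return the pentoses to glycolysis without making NADPH. Cytosolic malic enzyme and cytosolic isocitrate dehydrogenase are the other main cytosolic sources. The genes described here are G6pdx, Pgls and Pgd of the oxidative branch, Rpia, Tkt and Taldo1 of the sugar phosphate branch, and Me1 and Idh1. They were chosen by symbol, make up 8 of the 24421 genes in the deposited matrices, and 4 of them encode enzymes that make NADPH themselves.

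The tissue sequenced was the epididymal fat pad of male wild-type (WT) C57BL/6J mice, an inbred strain that becomes obese on high-fat diet (HFD). The weight-cycled mice, labelled Weight-cycling and called WC1 here, started at 8 weeks of age and received HFD for 8 weeks, standard diet for 2 weeks and HFD for 6 weeks. Their controls, labelled High-fat control and called Ctrl here, began HFD at 10 weeks of age and stayed on it for 14 weeks, so both groups had 14 weeks of HFD and ended at 24 weeks of age. There were 2 libraries per group. The labels do not say how many mice a library holds, so the p-values measure only the spread between these libraries.

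The libraries held between 61465029 and 90965297 reads. Each of the 8 genes was covered by between 1446 reads (Rpia in WC1 1) and 64172 reads (Pgd in Ctrl 2), and all 8 passed the filter of at least 0.5 CPM in 2 libraries. The adipocyte markers were present, with a summed level of 11921 and 13526 CPM in Ctrl and 21504 and 27364 CPM in WC1, and 9 of 12 were called higher. The 12 macrophage markers summed to 16320 and 14892 CPM in Ctrl and to 10331 and 7157 CPM in WC1, and 6 were called lower. The 8 fibroblast markers summed to 9539 and 9236 CPM in Ctrl and to 8385 and 6558 CPM in WC1 (3 called lower), and the 6 endothelial markers to 349.7 and 397 CPM in Ctrl and to 741 and 962 CPM in WC1 (5 called higher). In the other marker lists, 1 of 4 B cell, 1 of 5 erythroid, 1 of 2 tested skeletal muscle and 1 of 4 tested brown adipocyte genes were called, all higher, compared to 0 of 6 mesothelial and 0 of 6 T and NK cell genes. The called genes were Cd79b, Hba-a1, Acta1 and Elovl3. Hba-a1 rose from 2.49 and 3.42 CPM to 241 and 51.8 CPM. Hba-a2, in contrast, held 179 and 188 CPM for Ctrl, against 0.164 and 231 CPM for WC1. Ckm, Myh4, Myh1 and Ucp1 were below the filter, and Ucp1 was lower in WC1 (0.290 and 0.291 TPM, against 0.125 and 0.188 TPM). None of the 6 epididymis markers passed the filter, and Lcn5, Lcn8, Crisp1 and Spink11 were at 0 in every library. Adam7 was at 0 in both Ctrl libraries, 3.02 CPM in WC1 1 and 0.0318 CPM in WC1 2. Defb42 was at 0.442 CPM in WC1 1 and at 0 elsewhere. The summed adipocyte, macrophage, fibroblast and endothelial levels did not overlap between the diet groups. Nor did the summed B cell (4.31 and 2.59 CPM for Ctrl, against 7.24 and 26.4 CPM for WC1) and erythroid levels (208 and 342 CPM, against 456 and 491 CPM). The same held for skeletal muscle (6.70 and 8.88 CPM, against 18.1 and 17.8 CPM) and brown adipocyte markers (7.43 and 8.69 CPM, against 14.7 and 13.3 CPM). The part of these lists in the results below was not tested. The summed mesothelial level (122 and 90.5 CPM for Ctrl, against 60.7 and 163 CPM for WC1) and the summed T and NK cell level (11.1 and 6.56 CPM, against 6.01 and 10.1 CPM) overlapped. In whole tissue, fewer cells of a type and less RNA per cell cannot be told apart.

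The promoters of the 3 genes that passed the test below, and of G6pdx, are shown. They were searched for fixed motifs linked to the antioxidant factor NRF2 and the lipogenic factors SREBP and ChREBP. The sequences are from RefSeq (GRCm38.p6), run from 250 bases before to 50 bases after the start site nearest to the GENCODE gene start, and are written 5′ to 3′ on the strand of the gene. Capitals mark a match to the antioxidant response element core.
Me1 (chr9:86695865-86696164, minus strand): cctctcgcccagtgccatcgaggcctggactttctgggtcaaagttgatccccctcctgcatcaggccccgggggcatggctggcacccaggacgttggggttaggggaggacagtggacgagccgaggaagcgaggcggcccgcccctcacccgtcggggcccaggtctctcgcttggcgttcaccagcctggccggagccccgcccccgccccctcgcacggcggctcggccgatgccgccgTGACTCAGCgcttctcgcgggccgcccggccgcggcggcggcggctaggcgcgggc
G6pdx (chrX:74428831-74429130, minus strand): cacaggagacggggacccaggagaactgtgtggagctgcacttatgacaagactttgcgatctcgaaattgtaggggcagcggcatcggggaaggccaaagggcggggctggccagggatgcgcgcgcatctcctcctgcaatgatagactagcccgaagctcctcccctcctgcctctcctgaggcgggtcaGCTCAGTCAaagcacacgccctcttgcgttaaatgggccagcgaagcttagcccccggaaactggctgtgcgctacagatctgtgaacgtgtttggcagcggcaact
Taldo1 (chr7:141391910-141392209, plus strand): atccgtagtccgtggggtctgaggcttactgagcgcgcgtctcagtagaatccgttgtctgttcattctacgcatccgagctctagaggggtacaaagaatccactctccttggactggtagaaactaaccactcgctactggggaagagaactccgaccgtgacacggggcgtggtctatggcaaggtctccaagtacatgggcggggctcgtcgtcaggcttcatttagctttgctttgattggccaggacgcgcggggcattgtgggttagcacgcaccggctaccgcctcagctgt
Pgd (chr4:149166656-149166955, minus strand): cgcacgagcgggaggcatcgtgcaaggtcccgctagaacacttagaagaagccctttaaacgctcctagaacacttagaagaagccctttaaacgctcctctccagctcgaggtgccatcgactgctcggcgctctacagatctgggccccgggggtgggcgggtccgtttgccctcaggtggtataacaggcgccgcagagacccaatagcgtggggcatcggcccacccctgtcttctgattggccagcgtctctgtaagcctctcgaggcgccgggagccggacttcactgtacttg

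All 8 genes had a promoter in the RefSeq table, and 3 motifs were searched on both strands. The antioxidant response element core TGACNNNGC was found in 2 of the 8 promoters and in 12.4% of all 32851 promoters of the same length. In Me1 it began 6 bases before the start site, and in G6pdx it lay on the opposite strand and began 57 bases before the start site. The sterol response element TCACNCCAC was found in 0 of the 8 (1.24% of all promoters) and the E-box CACGTG in 0 of the 8 (7.15% of all promoters), so no matches overlapped. These matches describe the letters of this window only, and a binding site with letters other than these motifs would not be found.

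The main comparison asked how the diet history was reflected in the 8 transcripts. Me1 rose, Pgd and Taldo1 fell, and the other 5 genes did not pass the threshold (limma on log2(CPM + 1), Benjamini-Hochberg adjusted over 14106 genes, threshold 0.05). CPM is the deposited value proportional to reads, set to a library total that had been rescaled. With 1 of 8 genes higher and 2 of 8 lower, the counts stand beside 10.2% of all tested genes called higher and 7.71% called lower, 17.9% together. edgeR on recovered reads called the same number of the 8 genes (3, beside 17.6% of all genes) and DESeq2 called 5 (beside 27.4%). The groups did not overlap in 7 of the 8 genes, with 3 higher and 4 lower in WC1, where this was so in 69.3% of all genes (32.7% higher and 36.6% lower). The median log2 fold change was -0.0099 over the 8 genes and -0.019 over all tested genes, while the 8 genes spread from -0.74 to 0.69. The called members lay on both sides of 0.

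**Figure D1:**
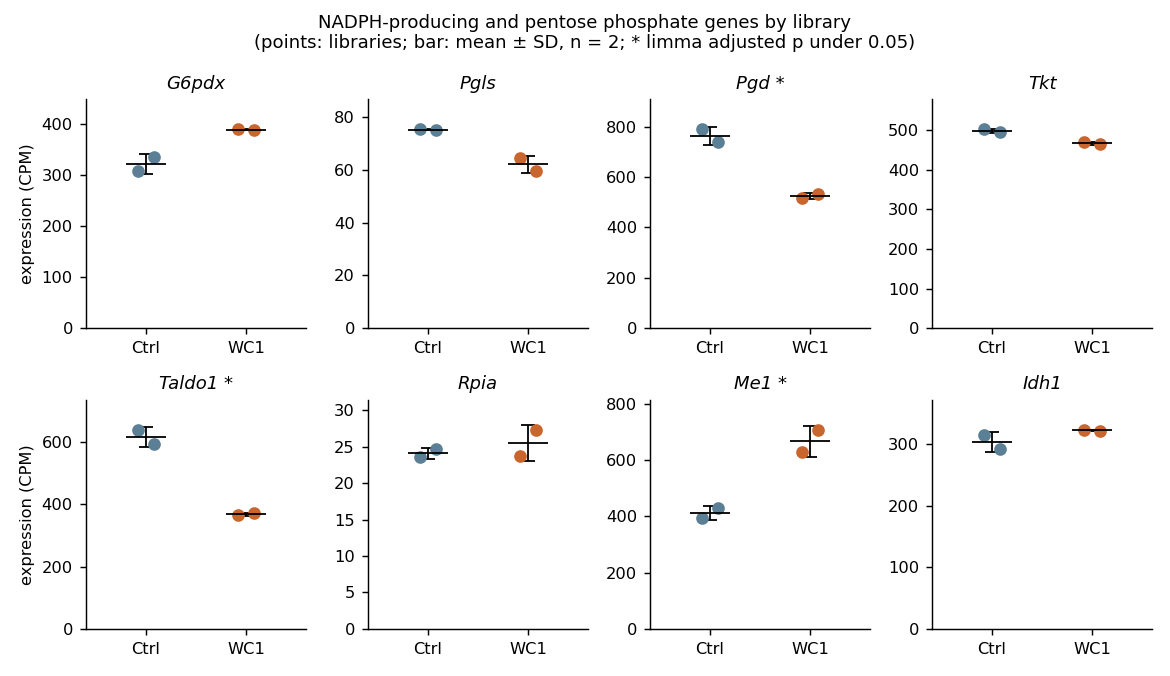
Expression of the 8 genes in CPM (y axis, from 0) in the Ctrl and WC1 libraries (x axis). Points are libraries, bars are means ± SD (n = 2), and an asterisk marks a limma adjusted p under 0.05. Me1 rose to 629 and 706 CPM in WC1, Pgd fell to 515 and 534 CPM and Taldo1 fell to 364 and 370.2 CPM.

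Of the 2 sources outside the pentose phosphate pathway, Me1 passed the test. Me1 (ENSMUSG00000032418.15, chr9:86581371-86695953, mm10) encodes cytosolic malic enzyme, which turns malate into pyruvate and NADPH. The Ctrl libraries held 395 and 428 CPM and the WC1 libraries 629 and 706 CPM. Both WC1 libraries lay well above both Ctrl libraries. The mean rose from 412 ± 23.5 to 668 ± 55.0 CPM (SD, n = 2), 1.62 times the Ctrl level, or 0.69 ± 0.11 on the log2 scale (SE; adjusted p = 0.0227 in limma). The call was kept in 12 of 14 alternative settings and was lost without Ctrl 1 (log2 fold change 0.64, adjusted p = 0.227 in limma) and without Ctrl 2 (0.75, adjusted p = 0.149 in limma). A processed pseudogene, Gm7049, matches 1716 bases of a Me1 transcript at 98.4% identity. The deposited matrices do not list the symbol Gm7049, and the sources used here do not say how reads shared between such copies were assigned.

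Idh1 (ENSMUSG00000025950.16, chr1:65158616-65186500) encodes the isocitrate dehydrogenase of the cytosol and peroxisomes, which makes NADPH with 2-oxoglutarate. Levels were 315 and 292 CPM for Ctrl, against 323 and 322 CPM for WC1. The WC1 libraries were nearly equal and lay just above Ctrl 1. The log2 fold change was 0.088 ± 0.080 (SE; adjusted p = 0.459 in limma), so a difference was not shown beyond the spread between libraries. The log2 fold change of Idh1 was 0.23 in TPM (adjusted p = 0.0878 in limma) and 0.20 with quantile normalization (adjusted p = 0.131 in limma). It was 0.14 without Ctrl 1 and 0.035 without Ctrl 2.

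In the oxidative branch, the first and the last enzyme had opposite signs. G6pdx (ENSMUSG00000031400.10, chrX:74409483-74429194) encodes glucose 6-phosphate dehydrogenase, the entry step of the pathway. Ctrl 1 and Ctrl 2 held 307 and 334 CPM, compared to 389 and 387 CPM for WC1 1 and WC1 2. The groups did not overlap. The log2 fold change was 0.27 ± 0.084 (SE; adjusted p = 0.0817 in limma). G6pdx did not pass the threshold in CPM but was called by limma with quantile normalization (adjusted p = 0.0393), in TPM (adjusted p = 0.0338) and without WC1 1 (adjusted p = 0.0497), and by DESeq2 on recovered reads (adjusted p = 0.0171). G6pd2, an intronless copy of G6pdx on chromosome 5, matches 2332 bases of a G6pdx transcript at 93.2% identity. G6pd2 was listed at 0.0292 and 0 CPM for Ctrl, against 0 and 0.0159 CPM for WC1, below the 0.0345 to 0.0492 CPM that 3 reads are worth. The exons of G6pdx also overlap 418 bases of Ikbkg on the opposite strand, 13.6% of its exonic bases, and Ikbkg had a log2 fold change of -0.47. The library kit keeps strand, but the sources used here do not say whether the counting used it.

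Pgls (ENSMUSG00000031807.10, chr8:71592176-71601092) encodes the lactonase of the second step. Ctrl held 75.5 and 75.2 CPM, and WC1 held 64.5 and 59.8 CPM. The Ctrl libraries were nearly equal and lay above both WC1 libraries. The log2 fold change was -0.28 ± 0.071 (SE; adjusted p = 0.0571 in limma), which missed the threshold. Pgls was called with DESeq2 (adjusted p = 0.0402), and its log2 fold change was -0.33 without WC1 1. In TPM the log2 fold change was only -0.14 (adjusted p = 0.176 in limma). Its exons share 776 bases with Fam129c on the same strand, a gene listed between 2.09 and 2.97 CPM.

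Pgd (ENSMUSG00000028961.15, chr4:149149991-149166771) encodes phosphogluconate dehydrogenase, the second NADPH-making step of the branch. The Ctrl libraries held 789.7 and 737 CPM and the WC1 libraries 515 and 534 CPM. Both Ctrl libraries lay far above both WC1 libraries. The mean fell from 764 ± 37.0 to 525 ± 13.6 CPM (SD, n = 2), 0.687 times the Ctrl level. The log2 fold change was -0.54 ± 0.096 (SE; adjusted p = 0.028 in limma). The call was kept in 11 of 14 alternatives and was lost without Ctrl 1 (-0.49, adjusted p = 0.274), without Ctrl 2 (-0.59, adjusted p = 0.192) and without a filter on low values (adjusted p = 0.0515), all in limma.

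In the sugar phosphate branch, a single member passed the test. Taldo1 (ENSMUSG00000025503.5, chr7:141392199-141402968) encodes transaldolase, which moves a three-carbon unit between sugar phosphates. Levels were 638 and 592 CPM for Ctrl, against 364 and 370.2 CPM for WC1. Both WC1 libraries were far below both Ctrl libraries and close to each other. The mean fell from 615 ± 32.0 to 367 ± 4.28 CPM (SD, n = 2), 0.597 times the Ctrl level, or -0.74 ± 0.088 on the log2 scale (SE; adjusted p = 0.0163 in limma). The call was kept in 12 of 14 alternatives and was lost without Ctrl 1 (-0.69, adjusted p = 0.179) and without Ctrl 2 (-0.79, adjusted p = 0.12), both in limma. A processed pseudogene, Gm17823, matches 1016 bases of a Taldo1 transcript at 94.8% identity, and the deposited matrices do not list this symbol.

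Tkt (ENSMUSG00000021957.7, chr14:30548359-30574720) encodes transketolase, the partner of transaldolase in the same branch. Ctrl held 503 and 495 CPM, and WC1 held 469.9 and 465 CPM, without overlap. The log2 fold change of Tkt was -0.094 ± 0.082 (SE; adjusted p = 0.446 in limma), and it changed sign in TPM (0.047) and with quantile normalization (0.029). Rpia (ENSMUSG00000053604.5, chr6:70765720-70792232) encodes ribose 5-phosphate isomerase and was the least abundant of the 8 genes. Ctrl 1 and Ctrl 2 held 23.6 and 24.7 CPM, compared to 23.7 and 27.3 CPM for WC1 1 and WC1 2, so the groups overlapped. Its log2 fold change was 0.074 ± 0.098 (SE; adjusted p = 0.613 in limma), and -0.023 without WC1 2.

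**Figure D2:**
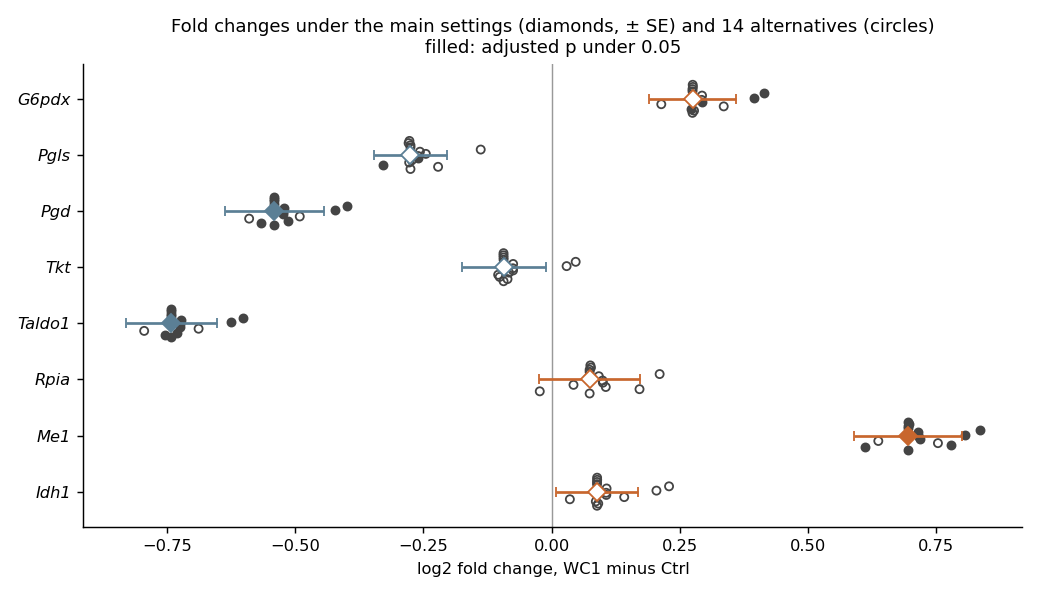
Log2 fold change of each gene, WC1 minus Ctrl (x axis), for the 8 genes (y axis). Diamonds with bars are the values and SE in limma on log2(CPM + 1), circles are 14 alternative settings, and filled symbols have an adjusted p under 0.05. Me1, Pgd, Taldo1, G6pdx, Pgls and Idh1 kept their sign in all 14 settings, while Tkt and Rpia crossed 0.

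Levels of different genes can be set side by side in TPM, which corrects for transcript length. In Ctrl the order was Taldo1 (955 and 896 TPM), Pgd (679 and 640.03 TPM), Tkt (297 and 296 TPM), Idh1 (266 and 249 TPM), Me1 (232 and 254 TPM), G6pdx (225 and 247 TPM), Pgls (162 and 163 TPM) and Rpia (25.4 and 26.8 TPM). Idh1 and Me1 overlapped in this order, as did Me1 and G6pdx. In WC1, Taldo1 (595 and 624 TPM) and Pgd (483 and 517 TPM) were still the most abundant, and Me1 followed with 402 and 467 TPM. G6pdx (309.8 and 318 TPM), Tkt (303 and 309.8 TPM) and Idh1 (297 and 306 TPM) lay close together, and Tkt and Idh1 overlapped. Pgls (151 and 145 TPM) and Rpia (27.9 and 33.1 TPM) were again the lowest.

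The summed level of the 8 genes was 2841 and 2772 TPM in Ctrl and 2569 and 2719.8 TPM in WC1, a ratio of group means of 0.942. Its make-up differed more than its sum. Taldo1 took 33.6% and 32.3% of the summed TPM of the Ctrl libraries, against 23.2% and 23.0% for WC1. Pgd took 23.9% and 23.1% for Ctrl, against 18.8% and 19.0% for WC1. Both shares were thus lower in each WC1 library than in either Ctrl library. Me1 took 8.16% and 9.16% for Ctrl, against 15.7% and 17.2% for WC1. G6pdx took 7.90% and 8.90% for Ctrl, against 12.1% and 11.7% for WC1. The shares of Me1 and G6pdx were higher in each WC1 library, as were those of Idh1 (9.17% to 11.4% on average) and Rpia (0.931% to 1.15%). The share of Tkt was higher in TPM (10.6% to 11.6%) but not in CPM, where its log2 ratio to the sum of the 8 genes differed by -0.00085. The share of Pgls overlapped between groups, at 5.72% and 5.88% for Ctrl and 5.87% and 5.33% for WC1.

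**Figure D3:**
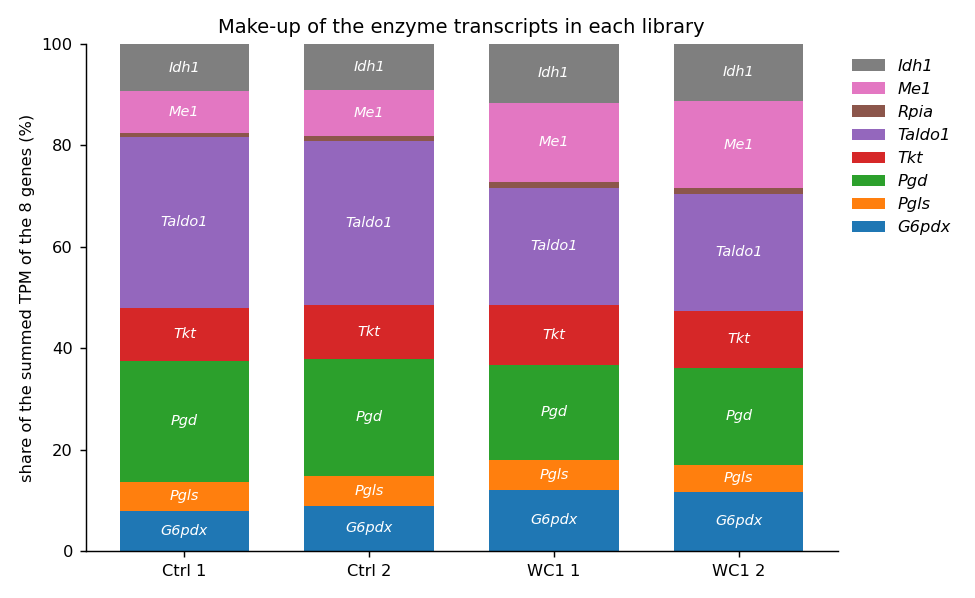
Share of each gene in the summed TPM of the 8 genes in percent (y axis) for each library (x axis). Bars add up to 100%. Taldo1 and Pgd narrowed from Ctrl to WC1 and Me1 widened from 8.66% to 16.4% on average.

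Ratios within a library do not depend on how the libraries are scaled. For each molecule of G6pdx transcript there were 3.02 and 2.59 of Pgd in Ctrl and 1.56 and 1.62 in WC1, so the ratio between the NADPH-making steps of the oxidative branch differed by -0.82 on the log2 scale (SD of the log2 ratio 0.16 in Ctrl and 0.042 in WC1, n = 2). The ratio of Tkt to Taldo1 was 0.311 and 0.330 in the Ctrl libraries against 0.510 and 0.496 in the WC1 libraries, a log2 difference of 0.65. The ratio of Me1 to G6pdx was 1.03 in each Ctrl library against 1.30 and 1.47 in the WC1 libraries, a log2 difference of 0.42. None of the 3 ratios overlapped between groups. The exact permutation p was 0.333 for each (two-sided, 11 ratios compared, adjusted p = 0.367), and 0.333 is the smallest value that 2 against 2 libraries allow. The direction of the 3 ratios held with any library left out.

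The genes whose profile over the 4 libraries lay closest to a member were found by the root mean square distance of centred log2(CPM + 1) values. For Me1 they were Tmem216 (distance 0.0087) and Jup (0.0096), for Taldo1 Ampd3 (0.018) and Rilpl2 (0.023), and for Pgd Itgb7 (0.0077) and Gas1 (0.015). Among the 2 closest were Dhrs1 for Pgls and Appl2 for Tkt. For G6pdx they were Ifit2 and Hoxa6, for Rpia Bola1 and Zfp873, and for Idh1 Eif2d and Pot1a. With 4 libraries many genes share a profile: 109 tested genes lay within 0.1 of Taldo1, 383 of Pgd, 534 of Me1 and 4758 of Tkt. Pgd and Taldo1 lay 0.10 from each other, whereas Me1 lay 0.72 from Taldo1.

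The rest of the pathway was read from lists of genes around NADPH supply and use, their substrates and their regulators. The counts of each list stand beside 10.2% of all tested genes called higher and 7.71% called lower, and beside a median of -0.019 over all tested genes. Of 12 other pentose phosphate genes 8 were tested, with 2 called higher and 0 lower and a median log2 fold change of 0.31. Prps1, which makes phosphoribosyl pyrophosphate from ribose 5-phosphate, rose from 149 and 162 CPM to 262 and 380.4 CPM (1.02 ± 0.19 on the log2 scale; adjusted p = 0.0295 in limma). The gene listed as Pgm2 rose by 0.51 on the log2 scale. The symbols Pgm1 and Pgm2 have been exchanged between mouse annotations, so which of a phosphopentomutase and a glucose phosphomutase it encodes, and with that its place in this list, is not settled here. Shpk (0.46), Rpe (0.32), H6pd (0.30), Dera (0.034), Prps2 (-0.21) and Rbks (-0.32) did not pass the test. H6pd encodes the hexose 6-phosphate dehydrogenase of the endoplasmic reticulum, and Rpe the epimerase that works beside the isomerase encoded by Rpia. G6pd2, Tktl1, Tktl2 and Prps1l1 were below the filter.

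Of 14 other NADPH producers and NAD kinases, 3 were called higher and 0 lower, with a median of 0.033. Aldh1l1, a folate enzyme of the cytosol that makes NADPH, rose from 59.1 and 61.5 CPM to 113 and 171 CPM (1.19 ± 0.20 on the log2 scale; adjusted p = 0.0253 in limma). Nnt, the mitochondrial transhydrogenase, rose by 0.68 ± 0.091 on the log2 scale (adjusted p = 0.0188 in limma). C57BL/6J mice are known to carry a deletion in Nnt, so transcript level is no measure of the enzyme. Aldh4a1 (0.49), which is known to use NAD rather than NADP, was the last of the 3. Idh2, the mitochondrial counterpart of Idh1, had a log2 fold change of 0.22 (adjusted p = 0.0746 in limma), and Me2 and Me3, the mitochondrial malic enzymes, had -0.050 and -0.0028.

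Of 10 genes that supply citrate and malate, 5 were called higher and 0 lower, with a median of 0.33, and 9 lay higher in WC1 without overlap, where 32.7% of all genes did. Pcx, which makes oxaloacetate from pyruvate, rose by 0.96 on the log2 scale. Slc25a10 (0.69) and Slc25a1 (0.67), the dicarboxylate and citrate carriers of mitochondria, Acly (0.43), which splits citrate in the cytosol, and Cs (0.32), citrate synthase, also rose. Mdh1 (0.34), which makes the malate that Me1 uses, did not pass the test (adjusted p = 0.0627 in limma). At the branch point with glycolysis, 11 of 12 genes were tested, with 2 called higher and 1 lower and a median of 0.017. Pfkl (0.58) and Hk2 (0.40) rose, whereas Gpi1, which competes with G6pdx for glucose 6-phosphate, fell by 0.41 on the log2 scale.

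Of 22 genes of lipid synthesis, 10 were called higher and 0 lower (median 0.35). The list holds NADPH-using reductases and synthases and also elongases and desaturases, which do not take NADPH themselves. Fasn (1.23), the NADPH-using fatty acid synthase, and Tecr (0.60), a reductase of fatty acid elongation, rose, as did the elongases Elovl3 (0.98) and Elovl6 (0.85). Elovl3 was a low gene, at 1.08 and 1.06 CPM for Ctrl and 3.23 and 2.95 CPM for WC1, and also stands in the brown adipocyte list. Of 13 genes of antioxidant defence and carbonyl reduction, 0 were called higher and 8 lower in limma (median -1.52). Gsr, glutathione reductase, fell from 121 and 109 CPM to 31.3 and 29.2 CPM (-1.89 ± 0.083 on the log2 scale; adjusted p = 0.004 in limma). Txnrd1 (-1.52), Nqo1 (-1.78), Cbr3 (-1.85), Blvrb (-1.64), Ptgr1 (-2.45), Akr1b8 (-3.01) and Akr1a1 (-0.87) were also called lower. Cat (-0.20), catalase, which does not use NADPH as its reductant, Akr1b3 (-0.17), Cbr1 (-0.12), Txnrd2 (0.13) and Txnrd3 (0.30) did not pass the test.

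Of 14 NADPH oxidase genes, which spend NADPH on superoxide in phagocytes and other cells, 10 were tested. Of these, 5 were called lower and 1 higher (median -0.60). Ncf1 (-1.36), Rac2 (-0.94), Cyba (-0.81) and Cybb (-0.79) were among those that fell, while Duox1 (0.79) rose. Of 16 regulators of lipogenesis and antioxidant defence, most of them transcription factors, 3 were called higher and 3 lower (median 0.073). Mlxipl (1.08), which encodes ChREBP, Thrsp (0.88), a lipogenic nuclear protein, and Pparg (0.41) rose. Mafg (-0.67), Bach1 (-0.51) and Nfe2l2 (-0.35), which encodes NRF2, fell. Over the 8 lists, 26 genes were called higher and 17 lower of 104 tested, where 10.2% of all genes were called higher and 7.71% lower. In limma these counts were 0 and 0 without Ctrl 1 (40 of the genes had an unadjusted p under 0.05), 0 and 1 without Ctrl 2 (43 genes) and 38 and 28 without WC1 1. Over all tested genes, 2 were called higher and 4 lower without Ctrl 1, 6 and 6 without Ctrl 2, and 2424 and 2748 without WC1 1.

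**Figure D4:**
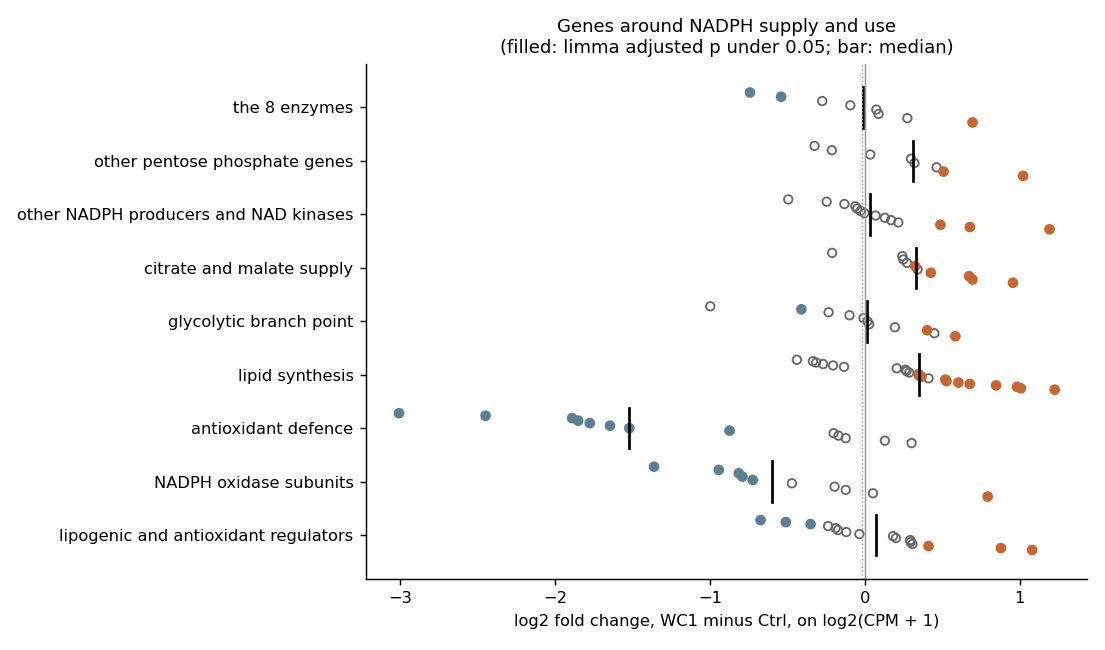
Log2 fold change, WC1 minus Ctrl, on log2(CPM + 1) (x axis) for the tested genes of each list (y axis). Each circle is a gene, filled where the limma adjusted p was under 0.05, black bars are list medians, the solid line is 0 and the dotted line is the median of all tested genes. The 8 enzymes lie on both sides of 0, the lipid synthesis genes have a median of 0.35 and the antioxidant genes a median of -1.52.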

How the data were processed

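Poly(A) RNA was made into directional libraries by the authors. The submitters' processing notes name fastp, HISAT2, StringTie and mm10, and the sources used here give no versions or annotation. The first deposited matrix is a signal proportional to reads (CPM of a library total that the authors rescaled), since columns sum to between 976415 and 1047785. In each library 100% of its values were whole multiples of 1 read within 0.01 read, and reads were recovered from it. The second deposited matrix holds TPM. For the 8 genes, the transcript length implied by both matrices differed between groups by at most 0.00066 on the log2 scale.

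The study left out genes under 0.5 CPM. Here 14106 of 24421 genes (at least 0.5 CPM in 2 or more libraries) were tested by limma 3.58.1 in R 4.3.3 on log2(CPM + 1), two-sided and with an abundance trend. P-values were adjusted by Benjamini-Hochberg across the tested genes, and the threshold was 0.05. Differences are given as WC1 minus Ctrl on that scale, which understates changes of low genes. edgeR 4.0.16 and DESeq2 1.42.0 on recovered reads were alternatives. In simulated data with 200 of 14106 genes changed, limma recovered 183 (100% of 4-fold and 83% of 2-fold changes) with 15 false calls, edgeR 181 with 12 and DESeq2 183 with 19. The simulation drew each gene independently and changed equal numbers in either direction, while limma called 2531 genes in these data. Its rates need not hold for these libraries. Positions are from GENCODE M21 (GRCm38, the same build as mm10), and similar transcripts were found with BLAST 2.17.0 (word size 50, identity of at least 90%). Groups were taken from the sample titles. A comparison of protein sequences, planned beside the promoters, was not run. The 3-read floor covers counting error only.

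The 8 genes and all lists were chosen with earlier results of these data known, so the lists are no independent evidence. Named are the 8 genes, the called genes of each list, the others of lists of up to 14 genes, and the 2 closest profiles per gene (predicted genes, Rik symbols and pseudogenes skipped). Some genes that this rule names are not reported here. The pseudogenes matched by BLAST, Ikbkg and Fam129c were named after the match was seen.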

Additional observations from a re-analysis of the deposited data

How the results depend on the processing

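The sign and the side of the threshold of the 8 genes were kept in 96 of 112 values under alternatives, a call was lost in 7, gained in 6 and the sign changed in 3. With pseudocounts of 0.5 and 0.1, edgeR, median-of-ratios scaling and a filter that keeps genes averaging 5 CPM or more, the counts over all genes, over the 8 genes and over the 8 lists stayed within 1.5 times. Without a filter on low values, 788 genes were higher and 532 lower, 1 of the 8 genes was lower, and 14 list genes were higher and 9 lower, with 18132 genes tested. In TPM, where the all-gene median moved by 0.12, 77.9% of calls were higher compared to 57.0% in CPM, 583 genes were lower, 2 of the 8 genes were higher and 2 lower, 40 list genes were higher, and the median of the 8 genes was 0.13. With the all-gene median of the TPM fold changes (0.10) subtracted, the log2 values were 0.73 for Me1, 0.31 for G6pdx, -0.50 for Pgd and -0.70 for Taldo1. With quantile normalization 2 of the 8 genes were higher and their median was 0.0498. DESeq2 called 1736 genes lower, and 2 of the 8 genes higher and 3 lower (27.4% of all genes called). The cause of these moves was not tested. The log2 fold change of Tkt was 0.0468 in TPM and 0.0291 with quantile normalization, and leaving out single libraries moved that of Rpia between -0.0232 and 0.17. In TPM the log2 fold change of Rpia was 0.21, and its groups did not overlap there. The log2 ratio of Tkt to the sum of the 8 genes differed by -0.00085 in CPM, and that of Pgls lay between -0.12 and 0.0173 when single libraries were omitted.

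With 1 library left out, its group keeps a lone library, and the test takes the spread from the other group. The number of all genes called ranged from 2 to 2424 higher and from 4 to 2748 lower, that of the 8 genes from 0 to 2 higher and from 0 to 3 lower, and that of list genes from 0 to 38 higher and from 0 to 28 lower. The median of the 8 genes ranged from -0.0546 to -0.0077. Counts were smallest when Ctrl 1 or Ctrl 2 was left out: in limma 0 of the 8 genes were then called, while the unadjusted p was under 0.05 for 2 and 3 of them. Each of the 8 genes had at least 1446 reads in every library.

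Replicate numbers 1 and 2 occur in either group, and the labels do not say that they pair libraries, and the difference between libraries 1 and 2 correlated across genes with r = 0.19 between the groups. With the replicate block, 1769 genes were higher and 1497 lower, 28 list genes were higher and 22 lower, and 1 of the 8 genes was higher and 2 lower.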
